A study of Mus musculus with 18 samples.

Results

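The genes described here are the 10 acyl-CoA thioesterases (Acot genes) Acot1, Acot2, Acot3, Acot4, Acot7, Acot8, Acot9, Acot11, Acot12 and Acot13. They were taken by gene symbol from a table of RNA-seq read counts for 20295 mouse genes. The cells were BAT-LgT, a single line of wild-type mouse brown preadipocytes immortalised with SV40 large T antigen and differentiated into brown adipocytes. On day 7 the triglyceride lipases ATGL and HSL were inhibited for 1 h with Atglistatin and CAY10499, or no inhibitor was given. Treatment for 3 h followed, with DMSO as Vehicle, with 100 nM isoproterenol (ISO), which stimulates β-adrenergic receptors, or with SR-3420. SR-3420 binds ABHD5 and thereby activates ATGL without receptor stimulation. Its dose is 10 µM per the labels, whereas the text of the study gives another dose, and this was not resolved here. Each of Vehicle, ISO and SR-3420 was thus studied without and with the inhibitors, the latter written Lipase Inh. + Vehicle and so on, in 6 groups of 3 samples from independent experiments.

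Acyl-CoA thioesterases split fatty acyl-CoA into the free fatty acid and coenzyme A, the reverse of the activation step that acyl-CoA synthetases carry out. Type I enzymes, Acot1 to Acot6 in the mouse, have an α/β-hydrolase fold and lie in a gene cluster, with Acot1 in the cytosol, Acot2 in mitochondria and Acot3, Acot4 and Acot5 in peroxisomes. Type II enzymes, here Acot7 to Acot13, have a hotdog fold and occur in several compartments. In fat and liver several type I genes are known as targets of PPARα, a nuclear receptor that fatty acids activate, and in brown fat these enzymes act where fatty acids released by lipolysis are activated, oxidised or returned to the free pool.

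Total counts lay between 10310447 and 21205032 in 17 libraries. Depth was lowest in Lipase Inh. + SR-3420 replicate 2, with 4263755 counts, of which Lars2 took 18.3%. Differences of members that rest on this library are therefore given with and without it, whereas those of other genes are given only with it. Markers of brown adipocytes summed to between 17692 and 35596 CPM (counts per 1000000, with library sizes scaled by TMM factors), with Dio2 at no more than 6 counts in any library. Lpl alone held 7679 to 24868 CPM of this, and the sum was 18964 to 21070 in Vehicle, 25681 to 27191 with ISO, 17692 to 18118 with SR-3420 and 32368 to 35596 with Lipase Inh. + ISO. Among the same markers Ucp1 ranged from 1.39 to 789 CPM over the libraries and Elovl3 from 3.13 to 66.1 CPM, so the sum says little about either. Ucp1 had a log2 fold change of 7.08 with ISO. Of 13 such markers tested, 7 rose and 1 fell with ISO, 7 rose and 4 fell with SR-3420, and 8 rose and 2 fell with Lipase Inh. + ISO. Adrb3, the adipocyte β-adrenergic receptor, fell in all of these (-1.60, -1.39 and -3.33 on the log2 scale). Over all genes tested, 26.8% rose and 25.0% fell with ISO, 26.0% and 25.4% with SR-3420, and 29.4% and 28.3% with Lipase Inh. + ISO. Summed markers of macrophages (4 genes, at most 6.30 CPM, Ptprc at 0), endothelium (3 genes, at most 0.524 CPM) and skeletal muscle (4 genes, at most 1.73 CPM) were at or near 0. Markers of preadipocytes or fibroblasts (11 genes) summed to 318 to 439 CPM in Vehicle, 461 to 492 CPM with SR-3420, without overlap, 288 to 368 CPM with Lipase Inh. + ISO and 357 to 448 CPM in the other groups. With SR-3420 4 of 10 tested rose and 0 fell (Col1a1, Col1a2, Dlk1 and Pdgfrb, by 0.35 to 0.80), and with Lipase Inh. + ISO 2 rose and 3 fell. Smooth muscle markers (3 genes) summed to 91.3 to 126 CPM in Vehicle, 137 to 140 CPM with SR-3420 and 83.5 to 123.4 CPM in the other groups, and those of dividing cells (3 genes) to 403 to 773 CPM. The part of these marker levels in the results was not tested. In bulk RNA, fewer cells of a kind and less RNA per cell cannot be told apart.

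All members but Acot12 passed the filter on low counts, so that 9 of 10 were among the 12156 genes tested. Acot3 passed it only through the ISO and Lipase Inh. + ISO groups, where it was high. Its calls in comparisons that include these groups were favoured by the filter. They are not comparable with the shares of all genes given below. On mouse build mm9, Acot2 (chromosome 12, 85328811 to 85334825), Acot1 (85350452 to 85358619), Acot4 (85379329 to 85385673) and Acot3 (85393101 to 85400514) follow one another on the plus strand, and the next genes of this cluster, Acot5 (85410275 to 85416969) and Acot6 (85441604 to 85450733), are not members. The others lie apart: Acot7 (chromosome 4, 151552209 to 151645964), Acot11 (chromosome 4, 106417166 to 106472436), Acot8 (chromosome 2, 164618268 to 164630381), Acot9 (chromosome X, 151697043 to 151732050), Acot12 (chromosome 13, 91881126 to 91925753) and Acot13 (chromosome 13, 24909824 to 24923358). Acot8 overlaps Snx21 by 3 bases and Acot11 overlaps Fam151a by 3732 bases on the opposite strand, and without a stated use of strand the reads there cannot be assigned to one gene.

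The 4 members of the chromosome 12 cluster carried most of the changes, so the 250 bases before their annotated starts are shown, 5′ to 3′ on the plus strand of mm9, at chr12:85350202-85350451 for Acot1, chr12:85328561-85328810 for Acot2, chr12:85392851-85393100 for Acot3 and chr12:85379079-85379328 for Acot4. Capitals mark every match to the nuclear receptor half-site AGGTCA, its extended form CAAAGGTCA, the direct repeat AGGTCANAGGTCA to which PPAR and RXR bind together, the cAMP response element TGACGTCA, or its half-site TGACG, each searched on both strands, where the shorter motifs lie inside the longer ones.
Acot1: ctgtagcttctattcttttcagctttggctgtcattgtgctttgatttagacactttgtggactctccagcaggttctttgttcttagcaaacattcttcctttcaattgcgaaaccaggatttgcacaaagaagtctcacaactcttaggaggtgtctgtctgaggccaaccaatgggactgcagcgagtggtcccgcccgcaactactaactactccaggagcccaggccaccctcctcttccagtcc
Acot2: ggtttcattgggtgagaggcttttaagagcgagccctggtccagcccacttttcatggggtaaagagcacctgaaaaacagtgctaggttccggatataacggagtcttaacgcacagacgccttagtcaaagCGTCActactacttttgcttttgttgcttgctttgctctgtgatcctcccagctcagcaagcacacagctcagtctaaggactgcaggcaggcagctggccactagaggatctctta
Acot3: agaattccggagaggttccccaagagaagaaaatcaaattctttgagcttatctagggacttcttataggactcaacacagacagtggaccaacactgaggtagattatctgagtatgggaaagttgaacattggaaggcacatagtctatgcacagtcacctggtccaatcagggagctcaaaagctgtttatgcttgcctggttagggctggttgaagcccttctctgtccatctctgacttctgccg
Acot4: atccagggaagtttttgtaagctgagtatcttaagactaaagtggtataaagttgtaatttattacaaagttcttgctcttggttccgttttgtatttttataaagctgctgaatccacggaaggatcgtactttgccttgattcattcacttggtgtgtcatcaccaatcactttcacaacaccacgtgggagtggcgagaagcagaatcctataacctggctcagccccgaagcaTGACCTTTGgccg

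In the Acot4 window, CAAAGGTCA was found on the minus strand from 13 to 5 bases before the start, a motif present in 0.222% of the 12156 windows of the genes tested. AGGTCA alone was present in 10.1% of windows, in Acot4 within this match and in Acot12 from 110 to 105 bases before the start. TGACG occurred in 27.3% of windows, among them Acot2 (117 to 113 bases before the start, minus strand) and Acot13. The direct repeat (0.0411% of windows) and TGACGTCA (2.84%) had no match in any member. A match is a run of letters and not a measured binding site.

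Reads of Acot1 and Acot2 can be hard to tell apart. Of all 50-base windows of the Acot1 transcript, 34.8% were also present in Acot2, and 47.1% were present in some other gene. For Acot2 24.5% were shared with Acot1, while the shares with any other gene were 12.1% for Acot4, 10.2% for Acot3 and 20.2% for Acot9, in its case with Acot10. On either strand, 17.7% of the windows of Acot8 were present in Snx21 and 19% of those of Acot11 in Fam151a. How the counting treated such reads is not given in the sources used here, and counts of Acot1 are therefore uncertain. The counts of Acot1 and Acot2 were also summed and tested as one gene.

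Per length of counted sequence, Acot13 and Acot2 were the most abundant members in Vehicle, at 54.8 ± 1.95 and 48.4 ± 6.29 CPM per kb (SD, n = 3), with overlapping samples. Acot13 (Them2) is a type II enzyme found at mitochondria. Acot8, a peroxisomal enzyme, followed at 15.3 ± 0.856, then Acot7, the cytosolic enzyme best known from brain, at 12.1 ± 1.25 and Acot1 at 11.4 ± 1.20, with Acot7 and Acot1 overlapping. The mitochondrial Acot9 reached 5.96 ± 0.375 and the peroxisomal Acot4 0.601 ± 0.265 CPM per kb. Acot11, Acot3 and Acot12 lay at 0.136, 0.125 and 0.0951 CPM per kb and overlapped.

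This order changed with treatment, as the stacked levels show. Acot2 led with ISO (79.7 ± 6.94 CPM per kb), SR-3420 (102 ± 8.78) and Lipase Inh. + SR-3420 (68.9 ± 4.99, and 67.6 without the library of low depth), in each without overlap with Acot13. Acot13 led with Lipase Inh. + ISO, at 48.9 ± 2.87 against 37.9 ± 0.848 for Acot2. The share of Acot2 in the summed level per length of the 10 genes was 32.4% ± 2.60 in Vehicle, 42.9% ± 1.61 with ISO and 50.8% ± 1.70 with SR-3420, but 27.2% ± 1.25 with Lipase Inh. + ISO. That sum was 149 ± 8.22 CPM per kb in Vehicle, 186 ± 9.32 with ISO, 200 ± 11.1 with SR-3420, 156 ± 4.87 with Lipase Inh. + Vehicle, 140 ± 3.49 with Lipase Inh. + ISO and 170 ± 11.4 with Lipase Inh. + SR-3420 (167 without the library of low depth).

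**Figure D1:**
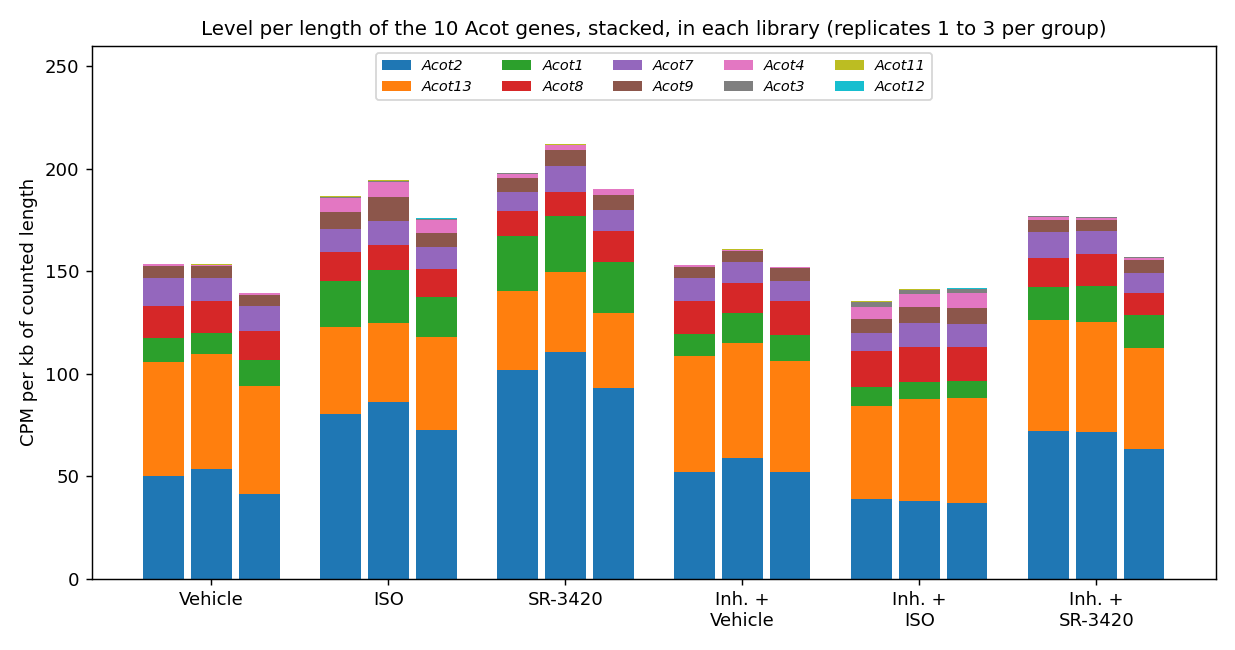
Level of each of the 10 Acot genes in CPM per kb of counted length (vertical axis), stacked, with 1 bar per library and replicates 1 to 3 side by side in each group. Acot2 and Acot13 make up most of every bar, and the Acot2 segment is tallest with SR-3420 (102 CPM per kb on average) and shortest with Lipase Inh. + ISO (37.9).

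ISO against Vehicle shows the response to β-adrenergic stimulation without inhibitors. Acot1, Acot2, Acot3, Acot4 and Acot9 rose and Acot13 fell, whereas Acot7, Acot8 and Acot11 passed the test in neither direction. The 5 that rose stand against 26.8% of all tested genes called higher at an adjusted p of at most 0.05, and the 1 that fell against 25.0% called lower. Acot4 and Acot3 also passed a log2 fold change of 1, which 5.03% of all genes did upwards. Acot3 was tested only through its level in the groups with ISO, so its part in these counts is no support for them. On total counts without TMM factors, 4 members were higher and 3 lower, since the rise of Acot9 was lost (adjusted p = 0.158) and Acot7 (log2 fold change -0.42) and Acot8 (-0.50) were called lower. On that scale the median gene shifts by -0.31 (log2).

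Acot4, the peroxisomal enzyme that prefers succinyl-CoA, had the largest change. Its level was 1.64, 0.696 and 1.85 CPM in the Vehicle libraries and 16.4, 17.1 and 15.0 CPM with ISO. Both groups were far apart, and the log2 fold change was 3.53 ± 0.22 (SE; adjusted p = 1.61e-11). SR-3420 gave 5.36, 5.57 and 5.98 CPM, between the Vehicle and ISO groups and overlapping neither.

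Acot2, the mitochondrial enzyme, was measured at 110, 118 and 90.9 CPM in Vehicle, 177, 189 and 159 CPM with ISO, and 223, 243 and 204 CPM with SR-3420. These 3 groups did not overlap. Its log2 fold change with ISO was 0.72 ± 0.09 (adjusted p = 8.10e-07). Acot1, its cytosolic relative, rose from 17.9, 15.8 and 19.6 CPM to 35.0, 40.5 and 30.3 CPM, by 0.99 ± 0.12 on the log2 scale (adjusted p = 3.56e-07). With SR-3420 Acot1 reached 41.4, 42.4 and 38.8 CPM. With both genes summed, the log2 fold change with ISO was 0.76 (adjusted p = 2.04e-07).

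Acot3, a peroxisomal enzyme for long-chain acyl-CoA, was low throughout without inhibitors. It had 3, 9 and 1 counts in the Vehicle libraries, 22, 15 and 12 with ISO and 1, 0 and 3 with SR-3420. The ISO libraries lay above all Vehicle libraries, and the summed counts of ISO were 4.22 times those of Vehicle per scaled library size (95% exact interval from 2.25 to 8.47, counting error only). The fitted log2 fold change was 2.04 ± 0.53 (adjusted p = 0.00296).

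Acot9 was measured at 9.54, 9.58 and 8.56 CPM in Vehicle and at 12.6, 17.97 and 10.6 CPM with ISO (log2 fold change 0.58 ± 0.15, adjusted p = 0.00336). ISO replicate 2 was the highest of all libraries, and without it the value was 0.34 (adjusted p = 0.0561). Acot13 fell from 38.2, 38.6 and 36.1 CPM to 29.1, 26.4 and 31.3 CPM (log2 fold change -0.38 ± 0.08, adjusted p = 0.000445). No ISO library reached the lowest Vehicle library for Acot13.

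**Figure D2:**
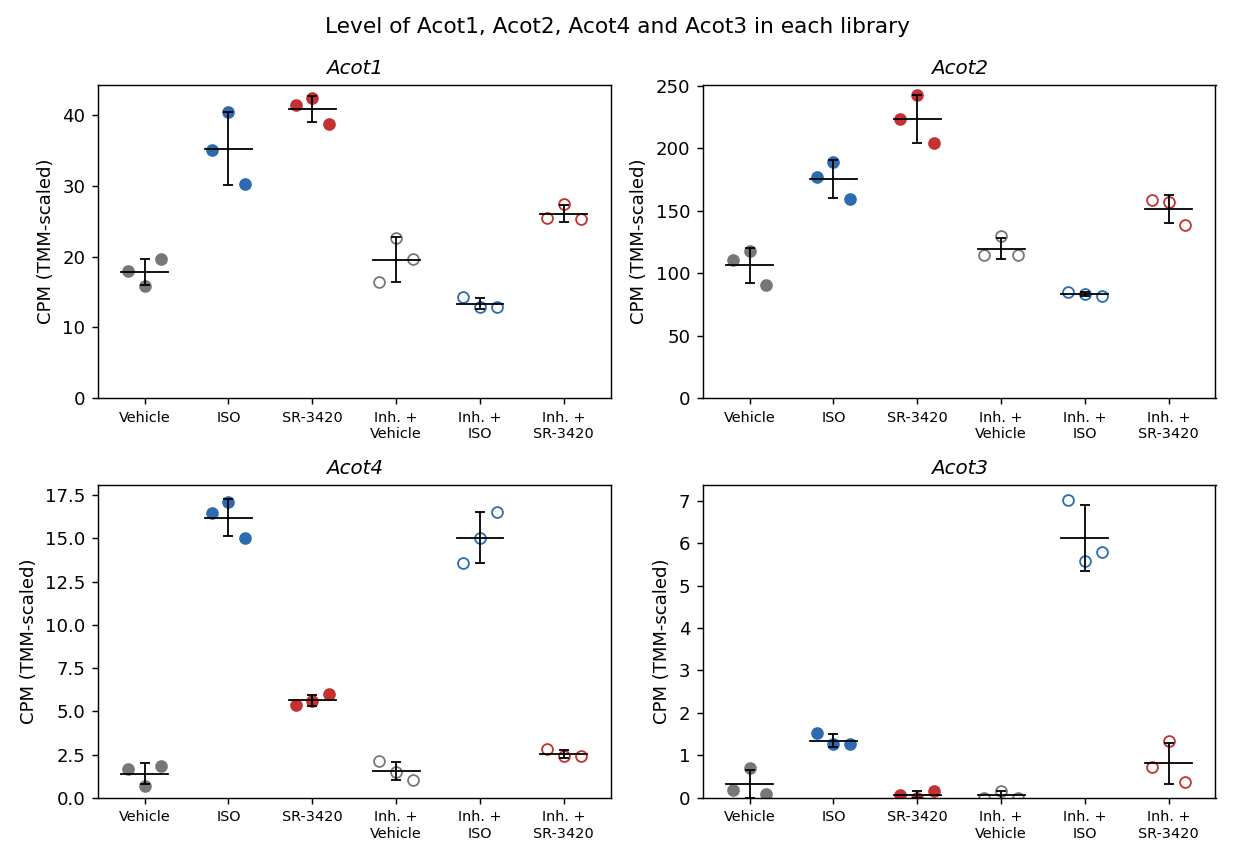
Level in CPM of TMM-scaled libraries (vertical axis, linear from 0) of Acot1, Acot2, Acot4 and Acot3 in the 6 groups, with 1 point per library, the mean as a line and the SD as bars. Filled points are without and open points with lipase inhibitors (Inh.). Acot1 and Acot2 are lowest with Lipase Inh. + ISO, Acot4 is high in both ISO groups (16.2 and 15.0 CPM), and Acot3 is high with Lipase Inh. + ISO (6.13 CPM).

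SR-3420 against Vehicle shows the response to this compound, given without receptor stimulation. Acot1, Acot2 and Acot4 rose and Acot13 fell. Of all genes tested, 26.0% were called higher and 25.4% lower at an adjusted p of at most 0.05. All 3 that rose passed a log2 fold change of 1, as did 3.97% of all genes. Acot1 rose by 1.20 ± 0.12 (adjusted p = 2.46e-08), Acot2 by 1.07 ± 0.09 (adjusted p = 3.37e-09) and Acot4 by 2.01 ± 0.24 (adjusted p = 4.42e-07). Acot13 was measured at 26.7, 27.0 and 25.4 CPM with SR-3420, a log2 fold change of -0.52 ± 0.08 (adjusted p = 1.60e-05). Acot3 had a fitted value of -1.78 ± 0.87 (adjusted p = 0.0955), with 4 counts in the 3 SR-3420 libraries against 13 in Vehicle. Without Vehicle replicate 3 this passed the threshold (adjusted p = 0.0445). On total counts alone, 3 members were higher and 2 lower, with Acot8 added to those called lower (adjusted p = 0.00823).

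ISO and SR-3420 were compared directly, although both are also set against the same Vehicle samples. Acot4 was higher with ISO by 1.52 ± 0.17 (adjusted p = 1.20e-06) and Acot3 by a fitted 3.81 ± 0.67 (adjusted p = 0.000190). Acot2 was higher with SR-3420, with a log2 difference of ISO minus SR-3420 of -0.35 ± 0.09 (adjusted p = 0.00512). Of all genes tested, 15.8% were called higher with ISO and 13.9% lower. For Acot1 the difference of -0.21 (95% interval from -0.44 to 0.02) had an adjusted p of 0.165, which became 0.0198 on total counts alone, so that 2 members were then higher and 2 lower. Leaving out ISO replicate 3 added Acot9 as higher with ISO (adjusted p = 0.0419).

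The lipase inhibitors alone, Lipase Inh. + Vehicle against Vehicle, changed 0 members by edgeR's quasi-likelihood test or DESeq2. At an unadjusted p under 0.05, 1 member, Acot3, was lower (adjusted p = 0.299), with 2 counts in Lipase Inh. + Vehicle against 13 in Vehicle. Of all genes tested, 0.485% were called higher and 0.428% lower. Acot1 differed by 0.13 (95% interval from -0.12 to 0.38) and Acot4 by 0.12 (from -0.49 to 0.73).

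With the lipases inhibited, ISO moved the cluster genes in opposite directions. Acot3, Acot4 and Acot9 rose and Acot1 and Acot2 fell in Lipase Inh. + ISO against Lipase Inh. + Vehicle, where 29.4% of all genes were called higher and 28.3% lower. Here too Acot3 was among the genes tested only through the groups with ISO. Acot1 was measured at 16.3, 22.7 and 19.6 CPM in Lipase Inh. + Vehicle and at 14.2, 12.8 and 12.9 CPM in Lipase Inh. + ISO, a log2 fold change of -0.55 ± 0.12 (adjusted p = 0.000666). Acot2 fell from 115, 129 and 115 CPM to 85.2, 83.6 and 81.5 CPM (log2 fold change -0.52 ± 0.09, adjusted p = 4.96e-05). All Lipase Inh. + ISO libraries lay below the Lipase Inh. + Vehicle libraries for both genes. The sum of both genes had a log2 fold change of -0.52 (adjusted p = 2.67e-05), while that of the sum of Acot1 to Acot6 was -0.10 (adjusted p = 0.321).

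Acot4 rose with ISO in the presence of the inhibitors as well. Its level was 2.11, 1.48 and 1.04 CPM in Lipase Inh. + Vehicle and 13.6, 15.0 and 16.5 CPM in Lipase Inh. + ISO (log2 fold change 3.31 ± 0.21, adjusted p = 1.80e-11). Acot3 had 0, 2 and 0 counts in Lipase Inh. + Vehicle and 78, 61 and 114 counts in Lipase Inh. + ISO, or 7.02, 5.58 and 5.78 CPM. The lowest of these was 61 counts against a highest of 2, and the ratio of the summed counts per scaled library size was 131 (95% exact interval from 35.8 to 1085). Its adjusted p was 2.36e-09, and its fitted fold change depends on the prior count because the comparison group held 2 counts in all.

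Acot9 rose by 0.39 ± 0.15 with Lipase Inh. + ISO (adjusted p = 0.0354), from 8.24, 8.65 and 9.30 CPM to 10.3, 11.9 and 12.1 CPM. This call was lost on total counts alone (adjusted p = 0.404) and when Lipase Inh. + Vehicle replicate 1 or 2 or Lipase Inh. + ISO replicate 2 or 3 was left out (adjusted p from 0.0704 to 0.114). Acot13 had a log2 fold change of -0.18 ± 0.08 (adjusted p = 0.0505) and was called lower on total counts (-0.41, adjusted p = 0.000729), where 2 members were higher and 3 lower and the median gene shifts by -0.23.

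For SR-3420 with the lipases inhibited, Acot2 and Acot3 passed the test upwards against Lipase Inh. + Vehicle, beside 2.99% of all genes called higher and 1.36% called lower. Acot2 was at 158, 157 and 139 CPM (log2 fold change 0.34 ± 0.09, adjusted p = 0.0371), and Acot3 had 8, 5 and 6 counts. The ratio of its summed counts to those of Lipase Inh. + Vehicle was 13.4 (95% exact interval from 3.24 to 119; adjusted p = 0.0275). Without Lipase Inh. + SR-3420 replicate 2, the library of low depth, the log2 fold changes were little different (0.31 for Acot2, and a fitted 3.27 for Acot3 against 3.54 with it), but neither passed the threshold with 2 samples left in the group (adjusted p = 0.116 and 0.0768), so that 0 members were then called. The call of Acot2 was also lost without Lipase Inh. + SR-3420 replicate 1, Lipase Inh. + Vehicle replicate 1 or 3, ISO replicate 1 or Lipase Inh. + ISO replicate 1 (adjusted p from 0.0532 to 0.168). That of Acot3 was also lost without Lipase Inh. + SR-3420 replicate 1 or Lipase Inh. + Vehicle replicate 1 or 3 (adjusted p from 0.0755 to 0.116). Acot4, at 2.79, 2.398 and 2.42 CPM, had a log2 fold change of 0.75 ± 0.28 (adjusted p = 0.159) and Acot1, at 25.4, 27.4 and 25.3 CPM, one of 0.41 ± 0.12 (adjusted p = 0.0654, and 0.0379 by DESeq2). Without the library of low depth these values were 0.77 (adjusted p = 0.216) and 0.38 (adjusted p = 0.154).

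Whether the response differs in the presence of the lipase inhibitors was tested as an interaction, defined as the log2 fold change found with inhibitors less that found without them. For ISO it was negative for Acot1 (-1.54 ± 0.17, adjusted p = 4.11e-07) and Acot2 (-1.24 ± 0.13, adjusted p = 1.70e-07) and positive for Acot3 (fitted 4.73 ± 1.04, adjusted p = 0.00133), against 14.9% of all genes called positive and 16.6% negative. Acot1 and Acot2 thus rose with ISO without the inhibitors and fell with them, and for both genes every Lipase Inh. + ISO library lay below every ISO library. The call of Acot3 is not comparable with the share over all genes, since it passed the filter only through the groups with ISO. For Acot4 the interaction was -0.22 ± 0.34 (95% interval from -0.92 to 0.48, adjusted p = 0.661). The remaining 5 members tested had adjusted p-values from 0.192 to 0.996.

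For SR-3420 the interaction was negative for Acot1 (-0.79 ± 0.17, adjusted p = 0.00125), Acot2 (-0.73 ± 0.13, adjusted p = 0.000200) and Acot4 (-1.26 ± 0.38, adjusted p = 0.0156), against 14.8% of all genes. It was positive for Acot13 (0.42 ± 0.11, adjusted p = 0.00903) and Acot3 (fitted 5.32 ± 1.28, adjusted p = 0.00363), against 12.5%. The groups behind the Acot3 value held 13, 4, 2 and 19 counts in all, so its size is poorly determined. Without the library of low depth the values were -0.82, -0.76, -1.25, 0.40 and 5.05 for Acot1, Acot2, Acot4, Acot13 and Acot3, and all 5 calls held. The call of Acot4 was lost without Lipase Inh. + Vehicle replicate 1 (-0.96, adjusted p = 0.0830).

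**Figure D3:**
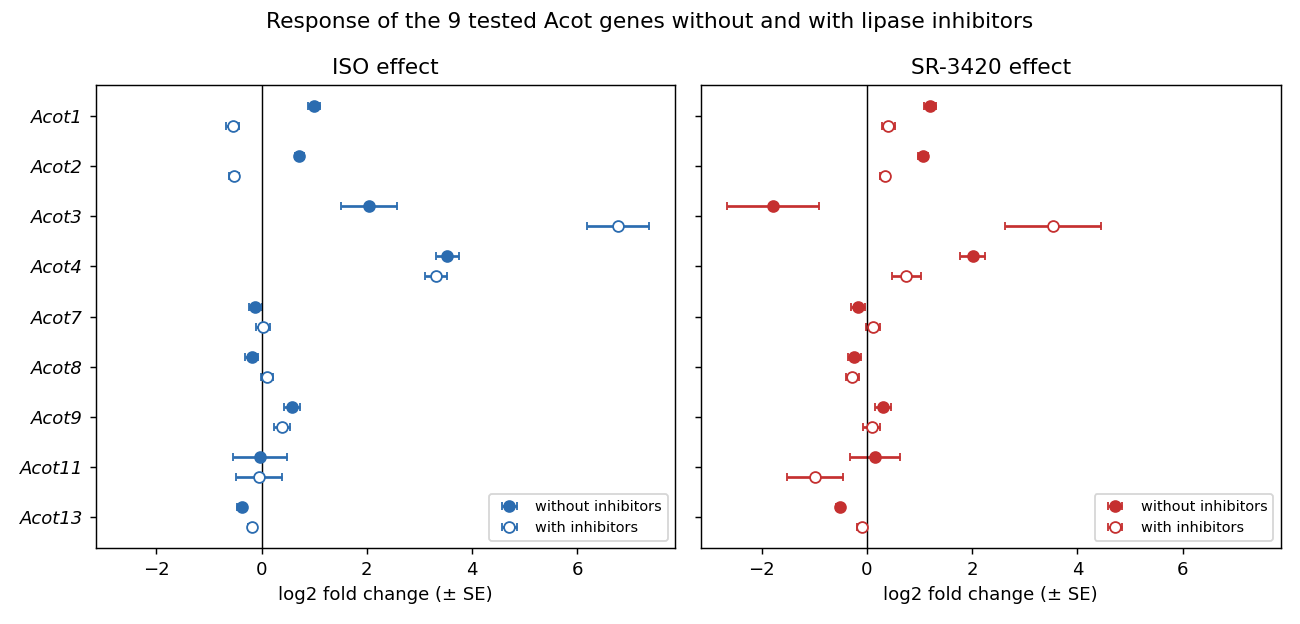
Log2 fold change with its SE (horizontal axis) of the 9 tested Acot genes with ISO (left) and SR-3420 (right), filled without lipase inhibitors (against Vehicle) and open with them (against Lipase Inh. + Vehicle). Acot1 and Acot2 lie right of 0 with ISO and left of 0 with ISO and inhibitors, while Acot4 lies above 3 in both.

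With inhibitors present, ISO and SR-3420 were also set against each other. Acot1 was lower with Lipase Inh. + ISO than with Lipase Inh. + SR-3420 (-0.96 ± 0.13, adjusted p = 1.31e-06), as was Acot2 (-0.86 ± 0.09, adjusted p = 7.89e-08), beside 28.3% of all genes. Acot3 (3.23 ± 0.42, adjusted p = 1.12e-06), Acot4 (2.56 ± 0.21, adjusted p = 1.18e-09) and Acot8 (0.38 ± 0.13, adjusted p = 0.0132) were higher, beside 28.6%. Acot8 was at 20.2, 19.3 and 19.1 CPM with Lipase Inh. + ISO and at 15.9, 18.1 and 12.5 CPM with Lipase Inh. + SR-3420, and its call was lost on total counts (adjusted p = 0.104) and without Lipase Inh. + SR-3420 replicate 3 (adjusted p = 0.166). Without the library of low depth the values of Acot1, Acot2, Acot3, Acot4 and Acot8 were -0.93, -0.83, 3.51, 2.55 and 0.47, and all 5 calls held.

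The other members were low or moved little. Acot7 lay between 13.1 and 20.0 CPM in the 18 libraries and passed the test in no comparison. Acot11, known as the brown-fat inducible thioesterase Them1, had 2 to 20 counts per library (0.347 to 1.65 CPM) and passed the test in none, with a 95% interval of the ISO effect from -1.10 to 1.03. Changes of about 1 on the log2 scale in either direction thus lie within this interval, which is not a limit of detection. The SE of Acot11 was 0.51 for the ISO effect, and 0.69 and 0.72 for the interactions with ISO and SR-3420. Acot12, a cytosolic acetyl-CoA hydrolase, had 0 to 15 counts. In a fit without the filter its adjusted p-values ran from 0.243 to 0.994.

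By the likeness of the 6 group means of log2 CPM, each centred on its own mean, among 9410 genes whose log2 CPM averaged 3 or more, the gene closest to Acot1 was Cttnbp2nl (root mean square difference 0.08), followed by Ppfibp1 and Dhrs9. Closest to Acot2 were Zxdc (0.07), Tmcc3 and Sqstm1, which encodes the autophagy receptor p62. Closest to Acot4 was Gyk (0.34), the glycerol kinase, followed by Zfp52 and Dnaja4. Acot3 had no close match, with Lrrn4cl at 0.64. Gyk was at 35.6 ± 3.14 CPM in Vehicle, 301 ± 38.0 with ISO, 92.6 ± 10.3 with SR-3420 and 172 ± 6.43 with Lipase Inh. + ISO. These likenesses describe 6 means and were not tested.

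A list of 18 further genes held other thioesterases and the lipid transfer proteins Pctp, Stard3 and Stard4, which are counted with them. Of the 16 tested, 6 rose and 5 fell with ISO (median log2 fold change 0.05, against -0.02 over all genes). With SR-3420 3 rose and 6 fell (median -0.15, against -0.02). For this list and those below, the shares over all genes were 26.8% higher and 25.0% lower with ISO, and 26.0% and 25.4% with SR-3420. Acot5, the next gene of the cluster, a peroxisomal enzyme for medium-chain acyl-CoA, had 0, 2 and 0 counts in Vehicle, 99, 80 and 87 with ISO and 10, 5 and 2 with SR-3420. With Lipase Inh. + ISO it reached 12.2, 12.4 and 12.2 CPM, against 6.87, 6.72 and 9.14 CPM with ISO, without overlap. Its fitted interaction with ISO was 0.79 ± 1.65 (adjusted p = 0.758), with 2 counts in each control group. Like Acot3, Acot5 was among the genes tested only through the groups with ISO. Elsewhere it reached at most 0.735 CPM, with SR-3420, against a filter cutoff of 0.793 CPM. Its rise with ISO was thus favoured by the filter and is not comparable with the share over all genes. Of the windows of the Acot5 transcript, 22.7% were present in some other gene. Acot6 rose with ISO by 1.70 ± 0.33 (adjusted p = 0.000160). Pctp, the phosphatidylcholine transfer protein to which Acot13 binds, fell with ISO (-1.28 ± 0.14, adjusted p = 1.70e-07) and with SR-3420 (-1.34 ± 0.14, adjusted p = 8.21e-08), and both interactions were positive (1.76 ± 0.19 and 1.20 ± 0.20).

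Of 19 acyl-CoA synthetases, 15 were tested. With ISO 5 rose and 3 fell (median 0.09), and with SR-3420 4 rose and 3 fell (median -0.02). Acsl1, which activates long-chain fatty acids for oxidation, had log2 fold changes of 2.00 ± 0.07 with ISO, 1.43 ± 0.07 with SR-3420 and 1.61 ± 0.07 with ISO plus inhibitors. Acsl3, a synthetase at lipid droplets, rose with ISO (0.54 ± 0.09) and fell with ISO plus inhibitors (-0.53 ± 0.09), as did Acss2, a cytosolic acetyl-CoA synthetase (0.77 ± 0.09 and -0.46 ± 0.09). Both had negative interactions (-1.07 ± 0.13 and -1.23 ± 0.13). The inhibitors alone raised Acsl3 by 0.50 ± 0.09 (adjusted p = 0.00377) and Acss2 by 0.62 ± 0.09 (adjusted p = 0.000516). Their falls with ISO plus inhibitors thus started from a raised level. Of the 15 tested, 4 had negative and 3 positive interactions with ISO, beside 16.6% and 14.9% of all genes. Acsl4 was among the positive ones (0.76 ± 0.16).

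The 24 genes of mitochondrial β-oxidation and the carnitine shuttle were all tested. With ISO 8 rose and 3 fell (median 0.06), whereas with SR-3420 5 rose and 14 fell (median -0.32). Between the agents, 17 were higher with ISO than with SR-3420 and 0 lower, beside 15.8% and 13.9% of all genes. Cpt1a, which makes acylcarnitine at the outer membrane, rose under both agents (1.03 ± 0.10 with ISO, 0.78 ± 0.10 with SR-3420). Cpt2, which turns acylcarnitine back into acyl-CoA, fell with SR-3420 (-0.56 ± 0.07). Of 19 peroxisomal genes, 4 rose and 5 fell with ISO (median -0.06), and 4 rose and 9 fell with SR-3420 (median -0.18).

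Of 20 textbook PPAR target genes, 18 were tested, and 10 rose and 1 fell with ISO (median 0.47), and 11 rose and 1 fell with SR-3420 (median 0.66). With inhibitors, 8 rose and 5 fell with ISO (median 0.27), beside 29.4% and 28.3% of all genes. The interaction with ISO was negative for 8 and positive for 3 (median -0.77), beside 16.6% and 14.9% of all genes. Plin2, a coat protein of lipid droplets, rose by 2.49 ± 0.12 with ISO and fell by 0.64 ± 0.11 with ISO plus inhibitors, and Cd36, a fatty acid transporter, rose by 0.45 ± 0.08 and fell by 0.34 ± 0.08. Of 11 PPAR genes and partners 10 were tested, of which 4 rose and 2 fell with ISO and 4 rose and 4 fell with SR-3420. Ppara, which encodes PPARα, rose under both agents (ISO 1.30 ± 0.15, SR-3420 1.50 ± 0.15) and fell by 0.63 ± 0.15 with ISO plus inhibitors. With SR-3420 plus inhibitors Ppara rose by 0.96 ± 0.15, and its interaction with SR-3420 was -0.53 ± 0.21 (adjusted p = 0.0686). Ppargc1a, a coactivator of PPARs, rose in both ISO comparisons, by 3.83 ± 0.09 without and 1.85 ± 0.08 with inhibitors. Other genes of this list went down. Pparg, which encodes PPARγ, fell with SR-3420 (-0.83 ± 0.09) and was not called with ISO (-0.16 ± 0.09). Rxra, which encodes an RXR, fell with ISO (-1.17 ± 0.07), with SR-3420 (-0.91 ± 0.07) and with ISO plus inhibitors (-1.48 ± 0.07).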

How the data were processed

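RNA-seq was performed by the authors on TruSeq libraries of total RNA. Per the labels and the methods of the study, reads were aligned with STAR 2.4.2a, collapsed with HOMER to 1 read per position and length, and counted per RefSeq gene on mm9 with iRNA-seq. The processing notes also name hg19. The deposited table holds raw counts of 20295 genes in 18 libraries without normalisation or filter, and use of strand is not stated. No molecular identifiers are described, so counting intervals cover counting error only. Collapsing caps very deep genes, and members reached at most 1.77 counts per counted base.

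Groups and replicate numbers came from the sample titles. Counts were fitted with edgeR 4.0.16 in R 4.3.3: filterByExpr (minimum count 10, minimum total 15; 12156 genes kept), TMM factors, and a single quasi-likelihood fit of 6 group means to the 18 samples. Benjamini-Hochberg adjustment ran over all genes tested, and a gene rose or fell at an adjusted p of at most 0.05. A change past 1 on the log2 scale, the study's threshold, was counted beside it. SEs were taken from the fold change and its F statistic. The members, gene lists and tests were chosen with earlier results of these data known, so no pattern here is independent support. All 10 members, genes most like a member that moved past a log2 fold change of 1, and examples from the lists are named. Examples were picked after their values were seen, as were Acot5 and Pctp in the list of other thioesterases and lipid transfer proteins. Likeness used log2 CPM with a prior count of 2.

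Scripts were tested on simulated counts with 200 genes changed 3-fold among 12012 tested. For ISO against Vehicle 198 were recovered with 7 others called, and for the interaction of ISO with inhibitors 190 with 12 others. The changed genes excluded those of the lowest mean level and were changed in the ISO group alone. These figures therefore do not cover low members such as Acot11, nor a treatment that moves as many genes as ISO did here. Alternatives were DESeq2 1.42.0, RLE factors, total counts alone, no filter or a stricter one, a fit to only the groups compared, a replicate block and leaving out each sample. Sequences were read from mm9 by the positions in the table and equalled RefSeq promoter sequences (GRCm38.p6) for 7 of 10 members. Shared 50-base windows came from GENCODE transcripts of mm9. No 2 libraries held identical counts.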

Additional observations from a re-analysis of the deposited data

Results flagged for a closer look

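Responses that differed with and without lipase inhibitors by the interaction test were picked out for a closer look. With ISO the interaction, in log2 units, was -1.54 for Acot1, -1.24 for Acot2 and 4.73 for Acot3. With SR-3420 it was -0.79 for Acot1, -0.73 for Acot2, -1.26 for Acot4, 0.42 for Acot13 and 5.32 for Acot3. The Acot1 and Acot2 values are not independent of each other, since their reads are partly shared, and their sum gave -1.28 with ISO and -0.74 with SR-3420. Both Acot3 values rest on 2 counts in the 3 Lipase Inh. + Vehicle libraries. All groups held 3 samples, too few to look for samples far from the rest of their group.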

How the results depend on the processing

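Over 81 log2 fold changes of members and up to 25 alternatives each, 1968 of 2006 values kept their side of the threshold, 21 lost it, 17 came to pass it and 0 changed direction, where values past the threshold in neither setting were not compared in sign. Of 7 alternatives other than leaving out a sample, total counts alone changed most, with 4 calls lost and 5 gained. The number of members changed between Lipase Inh. + SR-3420 and Lipase Inh. + Vehicle, 2 in the fit over all groups, was 1 on total counts alone and 1 with only the groups compared (7 members tested, without Acot3), and lay between 0 and 3 with single samples left out. For the other comparisons, single samples left out gave 5 to 6 members for ISO, 4 to 5 for SR-3420, 0 to 0 for the inhibitors alone, 4 to 6 for ISO with inhibitors, 3 to 3 and 4 to 5 for the interactions with ISO and SR-3420, 3 to 4 for ISO against SR-3420 and 4 to 5 for the same with inhibitors. With counts of Acot1 to Acot6 summed in place of Acot1 and Acot2, the fall with Lipase Inh. + ISO (-0.10, adjusted p = 0.321) and the difference between ISO and SR-3420 (-0.19, adjusted p = 0.0828) passed the threshold no longer. Acot3, Acot4, Acot5 and Acot6, which the larger sum adds, each rose from Lipase Inh. + Vehicle to Lipase Inh. + ISO. Their mean levels went from 0.0549 to 6.13, 1.55 to 15.0, 0.0486 to 12.2 and 0.990 to 2.00 CPM. The larger sum thus holds genes that moved in opposite directions, and the separate falls of Acot1 and Acot2 are not altered by it. The cause of the calls that changed with processing was not tested.

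Replicate numbers 1 to 3 occur in every group. After subtracting group means, samples that share a number had mean correlations across genes of -0.01 for number 1, 0.15 for number 2 and 0.19 for number 3. Of 45 such pairs 28 exceeded 0.1 (1 of 15 for number 1, 12 for number 2 and 15 for number 3), and 12 of 18 samples were closest to their own number. As not every pair exceeded 0.1 and the labels tie no number to a shared experiment, the numbers were not taken to pair the samples, although those of numbers 2 and 3 deviated together. A replicate block changed 1 call: Acot1 with Lipase Inh. + SR-3420 (0.42, adjusted p = 0.0255), for 3 members in place of 2. Low counts limit Acot3, Acot11 and Acot12, where only large changes can be seen with 3 samples a group.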
